A study of Homo sapiens with 9 samples.

Results

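The intervals described here are POLR2A peaks that fell outside the main human chromosome sequences. POLR2A is the largest subunit of RNA polymerase II, and its place on DNA was mapped with ChIP-seq, in which DNA bound by a protein is pulled down with an antibody and sequenced. The cells were HEK293T, a line derived from human embryonic kidney. A peak was included when its sequence was neither chromosome 1 to 22, X, Y nor the mitochondrial genome, or when it ended before position 14000000 of chromosome 21, which takes in the short arm of that chromosome. All of that stretch is called the chromosome 21 short arm below. The rule used only position. It found 431 of 8930 peaks, on 72 sequences.

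The 3 conditions are named by their sample titles: a control shRNA (shCtrl), knockdown of U2AF1 and knockdown of DHX9. The series design text calls the control cells wildtype, so what the control cells carried is known only from the titles. U2AF1 is the small subunit of the splicing factor that recognizes the 3′ splice site, and DHX9 is a helicase that unwinds RNA and RNA:DNA hybrids. There were 2 ChIP samples and 1 input sample per condition, and 1 peak list was deposited for each condition. The knockdowns were made with shRNA, and no clone, pool or remaining protein level is given in the labels. The peak lists hold no RNA values, so neither the knockdowns nor the identity of the line was checked against marker genes.

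With 1 list per condition no value below has a replicate error, and no difference between lists was tested against the spread between replicates. Peak names in the control list end in a suffix that reads as replicate 1, while those of the knockdown lists do not, so the control list may rest on 1 library. Fold enrichment is the authors' ratio of ChIP signal at the summit, the highest point of a peak, to a background that the files do not name. Fold enrichment and rank describe a peak within its own list, since depth and background differ between lists. Values from the 3 lists are therefore set side by side, and no change is read from them. Intervals around shares are 95% Wilson intervals and cover counting error only.

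Ribosomal DNA makes up much of these sequences. Each unit carries 1 copy of the 45S gene, which RNA polymerase I transcribes in the nucleolus into a precursor with the 18S, 5.8S and 28S ribosomal RNAs, separated by external and internal spacers, and units follow one another in arrays on the short arms of the acrocentric chromosomes. Beyond the 45S gene lie Sal boxes, which the termination factor TTF1 binds. The reference assembly holds a few of these units on the chromosome 21 short arm and on contigs whose place in the genome is not settled. Unlocalized contigs are assigned to a chromosome but not to a position, unplaced contigs (chrUn) to neither, and alternate sequences (_alt) are other haplotypes of regions that are also in the main chromosomes. Most such sequence has near-identical copies elsewhere, so the copy from which a read came is uncertain. How reads with several matches were handled is not given in the sources used here.

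The sequences below were read from the hg38 reference, 5′ to 3′ on the strand named. The first pair is shown because it lies in the strongest peaks of the 45S end and of the 5′ external spacer, and because both stretches contain the core of the Sal box, in capitals.
End of RNA45SN4, chr22_KI270733v1_random:135602-135801, plus strand: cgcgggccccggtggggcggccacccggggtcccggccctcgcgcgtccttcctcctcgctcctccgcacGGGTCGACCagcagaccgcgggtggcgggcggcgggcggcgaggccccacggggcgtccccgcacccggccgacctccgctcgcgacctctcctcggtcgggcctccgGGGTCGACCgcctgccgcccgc
5′ external spacer fragment at MIR3648-2, chr21:8987319-8987518, plus strand: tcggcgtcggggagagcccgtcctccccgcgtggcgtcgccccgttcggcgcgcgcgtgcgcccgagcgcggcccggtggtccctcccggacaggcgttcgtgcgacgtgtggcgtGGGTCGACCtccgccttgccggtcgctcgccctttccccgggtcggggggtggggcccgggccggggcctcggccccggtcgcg

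The next 4 are the same stretch of internal spacer 2 in 4 ribosomal DNA copies. They are shown because the copies are nearly alike, and only the last pair lay in peaks. Capitals mark bases that differ from the RNA45SN3 copy.
RNA45SN3 copy, in no peak, chr21:8396737-8396856, plus strand: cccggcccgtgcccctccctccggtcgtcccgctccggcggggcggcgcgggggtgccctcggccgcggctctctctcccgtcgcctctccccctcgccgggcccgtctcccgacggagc
RNA45SN5 copy, in no peak, chrUn_GL000220v1:113158-113277, plus strand: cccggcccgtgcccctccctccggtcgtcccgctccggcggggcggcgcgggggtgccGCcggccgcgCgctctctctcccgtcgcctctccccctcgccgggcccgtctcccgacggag
RNA45SN4 copy, in a peak of all 3 lists, chr22_KI270733v1_random:130014-130133, plus strand: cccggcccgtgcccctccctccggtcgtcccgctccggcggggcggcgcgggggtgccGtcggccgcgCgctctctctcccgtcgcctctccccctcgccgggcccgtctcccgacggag
RNA18SP4 copy, in a peak of all 3 lists, chr22_KI270733v1_random:175093-175212, plus strand: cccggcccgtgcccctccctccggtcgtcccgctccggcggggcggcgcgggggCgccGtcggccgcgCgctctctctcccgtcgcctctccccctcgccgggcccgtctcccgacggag

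The U1 genes on 2 contigs from chromosome 1 are shown because they held the highest peak of every list among these sequences. U1 is the small nuclear RNA that recognizes the 5′ splice site. Capitals mark differences from the first copy.
U1 gene, first copy, chr1_KI270713v1_random:21861-22024, minus strand: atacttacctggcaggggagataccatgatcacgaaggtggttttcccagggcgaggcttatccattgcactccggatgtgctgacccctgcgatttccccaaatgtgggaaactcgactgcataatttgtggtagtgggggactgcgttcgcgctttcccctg
U1 gene, middle copy, chr1_KI270765v1_alt:71963-72126, minus strand: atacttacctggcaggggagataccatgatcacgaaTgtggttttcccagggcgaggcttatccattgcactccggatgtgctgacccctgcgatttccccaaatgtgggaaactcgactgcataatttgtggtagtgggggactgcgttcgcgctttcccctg
U1 gene, last copy, chr1_KI270765v1_alt:63074-63238, minus strand: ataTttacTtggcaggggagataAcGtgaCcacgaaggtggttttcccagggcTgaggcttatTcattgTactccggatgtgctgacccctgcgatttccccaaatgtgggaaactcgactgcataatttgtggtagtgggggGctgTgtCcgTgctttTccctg

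The last set shows kinds of repeat under the weaker peaks, and the exon of U2AF1L5 that lay in a peak. Capitals mark, in order, the satellite motif GGAATG, every G and C in an AT-rich contig and the CENP-B box, the site in centromeric repeats that the protein CENP-B binds. The U2AF1L5 exon, without capitals, has the same letters as the exon of U2AF1 at chr21:43094655-43094788.
Satellite peak, chrUn_KI270438v1:112079-112198, plus strand: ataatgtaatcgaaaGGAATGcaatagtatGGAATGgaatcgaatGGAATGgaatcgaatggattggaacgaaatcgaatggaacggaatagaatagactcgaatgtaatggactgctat
AT-rich peak, chrUn_KI270467v1:1419-1538, plus strand: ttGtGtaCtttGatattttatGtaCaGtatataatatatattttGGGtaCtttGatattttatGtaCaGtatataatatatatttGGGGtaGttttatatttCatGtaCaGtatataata
Centromeric repeat peak, chrUn_KI270303v1:1299-1413, minus strand: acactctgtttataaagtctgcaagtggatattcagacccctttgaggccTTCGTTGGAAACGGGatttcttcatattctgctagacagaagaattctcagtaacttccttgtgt
U2AF1L5 exon, chr21:6486322-6486455, minus strand: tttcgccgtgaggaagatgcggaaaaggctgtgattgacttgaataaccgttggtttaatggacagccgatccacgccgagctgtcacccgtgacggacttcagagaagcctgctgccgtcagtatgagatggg

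The U2AF1 knockdown list had the highest share of its peaks on these sequences. The control list had 112 of 2757 peaks there, or 4.06% (3.39 to 4.87). The U2AF1 knockdown list had 146 of 1730, or 8.44% (7.22 to 9.84). The DHX9 knockdown list had 173 of 4443, or 3.89% (3.36 to 4.504). The U2AF1 knockdown list came first in the 5 other settings tried as well. The order of the other lists changed in 2 of these, where the DHX9 knockdown share was above the control share. Leaving out the ribosomal DNA gave 2.58%, 3.71% and 2.02%.

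By kind of sequence, the peaks fell into 4 groups. Ribosomal DNA held 42 peaks of the control list and 85 of each knockdown list, which is 37.5%, 58.2% and 49.1% of the peaks counted here. Alternate sequences held 34, 13 and 31. Unlocalized and unplaced contigs without the ribosomal DNA held 27, 46 and 53, and the rest of the chromosome 21 short arm held 9, 2 and 4. Ribosomal DNA peaks were also the widest, with medians of 384.5, 462 and 513 bp against 305.5, 299 and 288 bp for the other peaks on these sequences. They took up 46.2%, 75.2% and 66.8% of the bases covered by the peaks counted here.

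Few sequences had peaks in every list. Of the 72 sequences, 13 had a peak in all 3 lists and 24 in 2 lists. Peaks in the control list alone were found on 18 sequences, in the U2AF1 knockdown list alone on 5 and in the DHX9 knockdown list alone on 12. The chromosome 21 short arm led with 30, 46 and 46 peaks. It was followed by chr22_KI270733v1_random with 13, 22 and 22, chrUn_GL000220v1 with 8, 19 and 21, and chr14_GL000225v1_random with 5, 15 and 16. The first 3 of these carry the ribosomal DNA copies.

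Fold enrichment was lower on these sequences than over the whole of each list. The median was 2.57 in the control list, against 4.13 for all its peaks. It was 2.94 against 4.75 in the U2AF1 knockdown list and 3.12 against 5.27 in the DHX9 knockdown list. The groups differed within each list. The unlocalized and unplaced contigs had the lowest medians, at 1.61, 2.10 and 2.07, and ribosomal DNA followed at 2.23, 3.45 and 3.23. Alternate sequences, with medians of 4.63, 5.24 and 5.23, lay near or above the whole list, except that the DHX9 knockdown value was just below it.

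The peaks on these sequences were over-represented at the weak end of each list. They made up 21.4% of the 10% of control peaks with the lowest fold enrichment (59 of 276), 36.4% under U2AF1 knockdown (63 of 173) and 22.0% under DHX9 knockdown (98 of 445). Among the 10% with the highest fold the shares were 3.27% (9 of 275), 5.20% (9 of 173) and 2.24% (10 of 447). Of those with the highest folds, 0, 5 and 4 were ribosomal DNA peaks, in the same order of lists, and 7, 2 and 5 lay on alternate sequences.

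**Figure D1:**
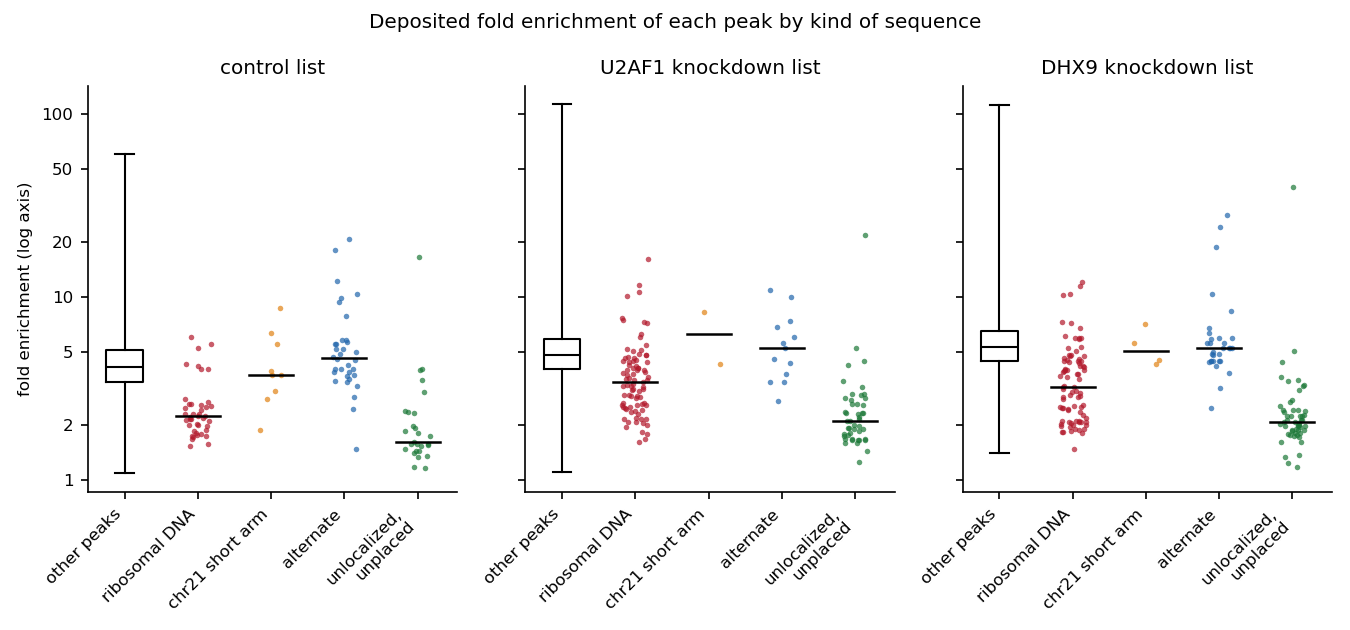
Fold enrichment given by the authors (y axis, log scale) for each peak, by kind of sequence (x axis), with 1 panel per list. Points are single peaks and lines their medians. The box covers all other peaks of the list, with its median, quartiles and full range. Most ribosomal DNA points and unlocalized or unplaced points lie below the box's median, and alternate sequences lie around it.

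A high local background accompanied the low folds. The p-value and fold of a peak fix the number of reads at the summit and the background, if the caller used a Poisson test with a pseudocount of 1. This gave a whole number of reads for all 1727 peaks tried in the U2AF1 knockdown list and all 4431 in the DHX9 knockdown list, to within 0.005 on the −log10 p scale. In the control list only 4.09% came out whole, so its background was not used. For peaks on these sequences the median background was 24.5 reads in the U2AF1 knockdown list, 11.95 times the lowest value in that list. For the other peaks it was 2.84 reads, or 1.38 times the lowest. In the DHX9 knockdown list it was 18.8 reads, or 11.2 times the lowest, against 2.29 reads, or 1.36 times.

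The groups differed widely in this respect. Ribosomal DNA peaks had a median background 10.96 times the lowest in the U2AF1 knockdown list and 11.3 times in the DHX9 knockdown list. The unlocalized and unplaced contigs stood at 24.7 and 32.7 times, with a maximum of 461 and 597 times. Alternate sequences stood at 1.03 and 1.00 times. A background at least 5 times the lowest was found for 123 of 146 U2AF1 knockdown peaks on these sequences (84.2%) and for 135 of 1581 others (8.54%). In the DHX9 knockdown list it was found for 130 of 172 (75.6%) and for 132 of 4259 others (3.10%). Peaks on these sequences thus made up 47.7% and 49.6% of all peaks with such a background. The part of read mapping in these values was not tested.

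**Figure D2:**
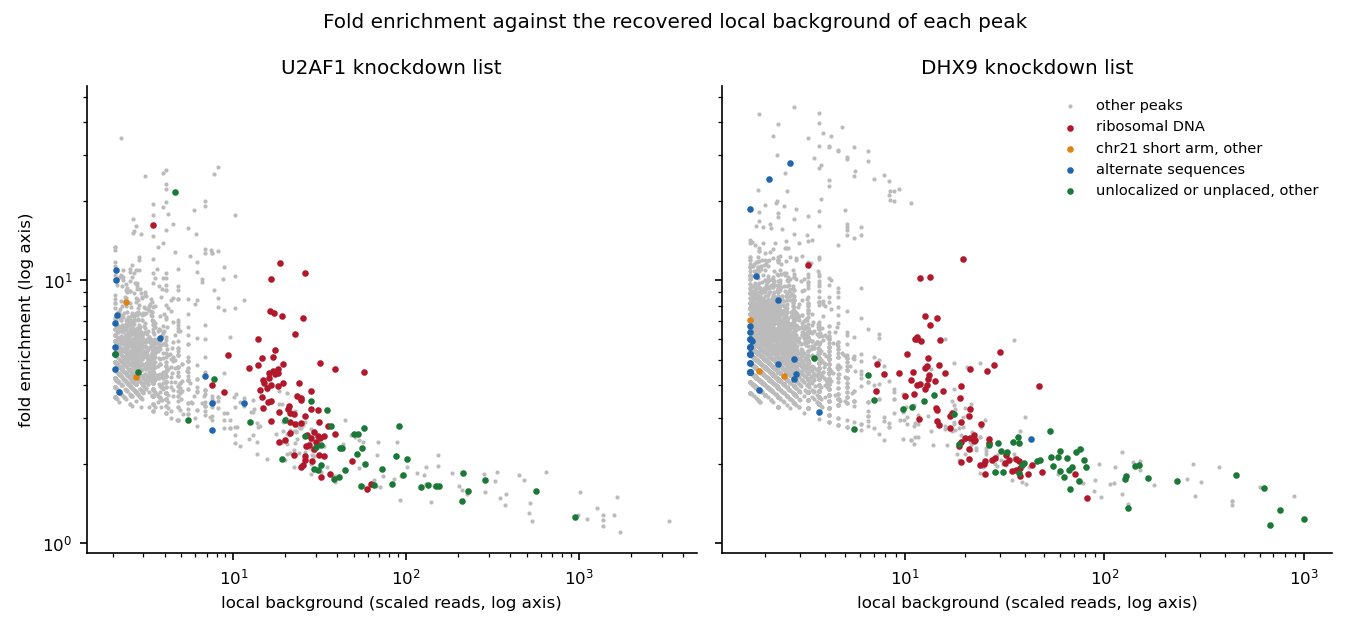
Fold enrichment (y axis, log scale) against the local background recovered from each peak's fold and p-value (x axis, reads, log scale) in both knockdown lists. Each point is a peak. Ribosomal DNA points sit around a background 10.96 to 11.3 times the lowest value of the list, unlocalized and unplaced points reach 461 and 597 times, and alternate sequences lie at the left edge.

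Overlap between lists was compared with that of all peaks, where 1 shared base was enough for an overlap. Of the control peaks on these sequences, 57 of 112 met a U2AF1 knockdown peak, or 50.9% (41.8 to 59.97), against 34.6% of all control peaks. A DHX9 knockdown peak met 66 of 112, or 58.9% (49.7 to 67.6), against 66.8%. The interval of the first share lay above the value of the whole list, and that of the second included it.

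Seen from the U2AF1 knockdown list, 51 of its 146 peaks met a control peak, or 34.9% (27.7 to 43.0), against 55.1% of that list. For DHX9 knockdown peaks the number was 61 of 173, or 35.3% (28.5 to 42.6), against 41.3%. The interval of the first lay below the value of the whole list, and that of the second included it.

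The knockdown lists were also set against each other. A DHX9 knockdown peak met 104 of 146 U2AF1 knockdown peaks, or 71.2% (63.4 to 78.0), close to the 69.1% of the whole list. A U2AF1 knockdown peak met 105 of 173 DHX9 knockdown peaks, or 60.7% (53.3 to 67.7), against 26.8% of the whole list.

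Ribosomal DNA accounted for most of these matches. All 42 control peaks in ribosomal DNA were overlapped by a U2AF1 knockdown peak and 41 of 42 by a DHX9 knockdown peak. Of the 85 U2AF1 knockdown peaks there, 36 were overlapped by a control peak and 72 by a DHX9 knockdown peak. Of the 85 DHX9 knockdown peaks there, 36 were overlapped by a control peak and 73 by a U2AF1 knockdown peak. Without the ribosomal DNA the share of control peaks overlapped by the U2AF1 knockdown list was 21.4%, below the background, and the share of DHX9 knockdown peaks overlapped by the U2AF1 knockdown list was 36.4%. On alternate sequences 5 of 34 control peaks had a match in the U2AF1 knockdown list and 13 of 34 in the DHX9 knockdown list.

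The ribosomal DNA was laid out on 1 reference unit, chr21:8389035-8433221, which is 44187 bp long and starts with RNA45SN3. Within it the 18S gene runs from base 3632 to 5500, the 5.8S gene from 6572 to 6728 and the 28S gene from 7892 to 12946, and the 45S gene ends at 13309. Alignment found 8 copies that include the 45S start. On chromosome 21 they start at 8205988, 8250197, 8389035 and 8433222, on chr22_KI270733v1_random at 122273 and 167355, and on chrUn_GL000220v1 at 105424 and 149396. The 5 copies of RNA45SN1 to RNA45SN5 are complete to the 45S end. The other 3, with the 18S entries RNA18SP3, RNA18SP4 and RNA18SP5, stop before it. Copies are named below by their 18S entry, so that RNA18SN4 stands for the copy of RNA45SN4. A further fragment, at chr21:8986605-8988749, holds 5′ external spacer and the start of an 18S gene, at 8988172. It was 97.9% identical to the unit.

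**Figure D3:**
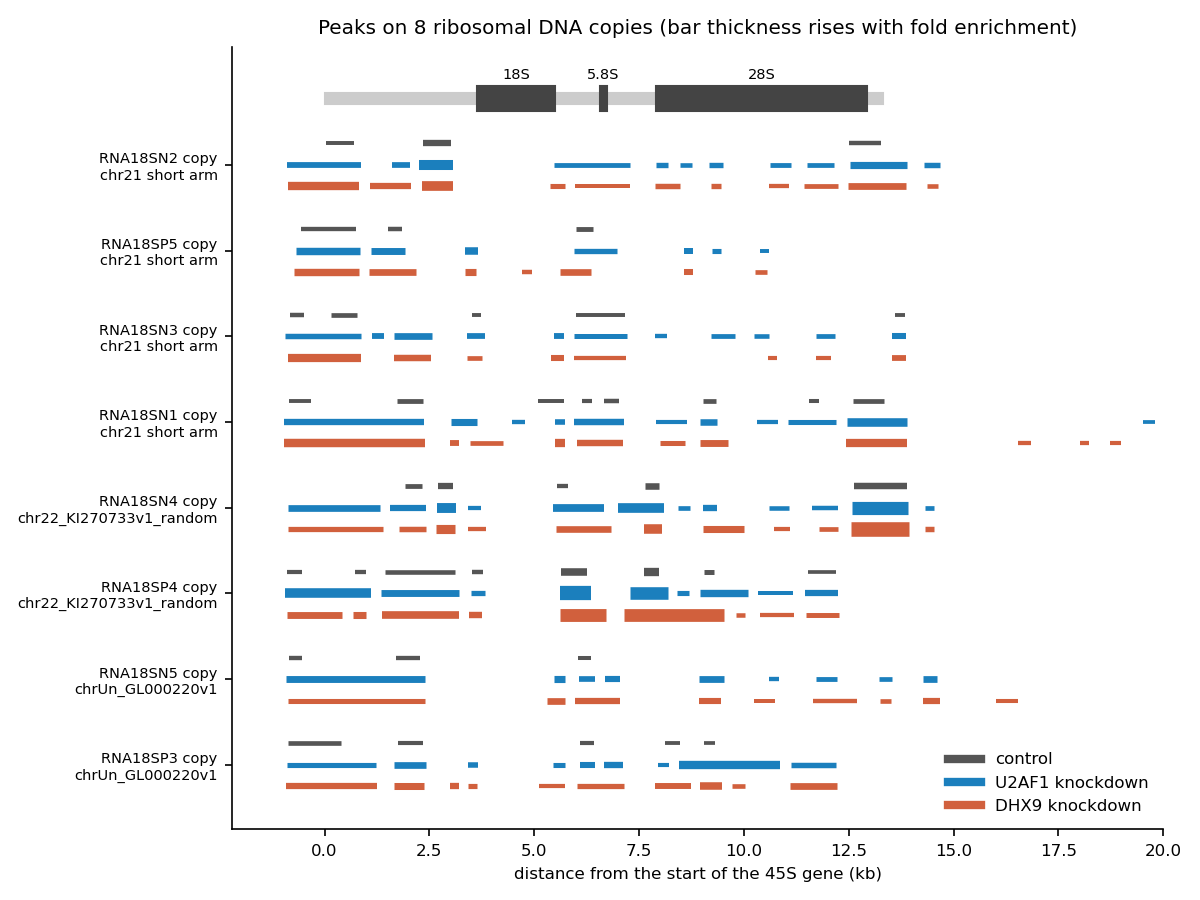
Peaks of the 3 lists on 8 ribosomal DNA copies, by distance from the 45S start (x axis, kb). Each bar is a peak, thicker with higher fold enrichment, and the model on top marks the 45S gene (grey) and its 18S, 5.8S and 28S parts (black). In both knockdown lists the base 664 before the 45S start lies in a peak on every copy, and peaks are sparse over the 18S gene.

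Peaks covered the transcribed unit unevenly. Over the 45S gene, peaks covered 17.6% of the 50 bp bins of the copies in control cells, 51.3% under U2AF1 knockdown and 49.4% under DHX9 knockdown. Over the 2 kb upstream of the 45S gene, where its promoter lies, they covered 18.4%, 45% and 43.8%. No bin was covered in all copies in the control list. In the knockdown lists 14 of 40 upstream bins were covered in all copies, and so were 40 and 27 of 266 bins of the 45S gene.

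The 18S gene was less covered than the 28S gene in every list. Its coverage was 4.05% in control cells, 6.76% under U2AF1 knockdown and 14.2% under DHX9 knockdown. Coverage of the 28S gene was 9.59%, 50.9% and 43.1%. The first 2 kb after the 45S end had 7%, 31.5% and 30.5%, and the next 4 kb had 0.00%, 0.250% and 7.50%. By position on the unit, the summits more than 2 kb past the 45S end numbered 0, 6 and 11. Their folds were 1.61 to 4.00 in the U2AF1 knockdown list and 1.48 to 2.09 in the DHX9 knockdown list. Some of these U2AF1 knockdown summits, including the one with a fold of 4.00, lay upstream of a 45S start and were assigned to no copy. Coverage was thus lower past the 45S end, and single summits occurred farther into the spacer in the knockdown lists.

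GC content differed between covered and uncovered bins. The 266 bins of the 45S gene had a mean GC content of 72.3%. Bins covered in at least 50% of the copies had 78.1% in control cells, 74.4% under U2AF1 knockdown and 73.2% under DHX9 knockdown. Bins covered in no copy had 69.97%, 57.1% and 66.1%. The part of GC content in the coverage was not tested.

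Counted by the place of their summits, the peaks were frequent in the 5′ external spacer and in the 28S gene. The 5′ external spacer held 13 control summits, with a median fold of 2.4, 18 U2AF1 knockdown summits, with 4.62, and 19 DHX9 knockdown summits, with 4.76. The 28S gene held 8, 30 and 23, with medians of 2.06, 2.60 and 2.58. The intergenic spacer, by position on the unit, held 2, 13 and 18, with medians of 2.96, 3.21 and 2.07. Internal spacer 1 held 7, 11 and 10 summits, internal spacer 2 held 3, 5 and 4, and the 2 kb upstream of the 45S start held 5, 4 and 4. The 18S gene held 4, 3 and 6, the 3′ external spacer 0, 1 and 1, and the 5.8S gene held 0 in every list. The highest fold in the 28S gene was 2.77, 6.00 and 5.23, and in the 5′ external spacer 5.56, 16.2 and 11.5.

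The stretch upstream of the 45S start lay in peaks in most copies. The base 664 before the start was inside a peak in 5 of 8 copies in the control list and in 8 of 8 copies in each knockdown list. These were often wide peaks that reached across the 45S start, and a fold belongs to the summit only. The summit lay within 250 bp of this base in 5 control copies, with folds from 1.73 to 2.47, in 4 U2AF1 knockdown copies, with 2.90 to 4.06, and in 4 DHX9 knockdown copies, with 2.85 to 4.59. In the other 4 copies of each knockdown list the peak had its summit inside the 5′ external spacer. On chromosome 21 this place is annotated as the microRNA gene MIR6724, in 4 copies. Of these, 2 lay in a control peak and all 4 in a peak of each knockdown list.

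Base 2863 of the unit, in the 5′ external spacer, lay in a peak in the same 3 of 8 copies in every list, and in 2 of them the summit lay within 250 bp of it. In the RNA18SN2 copy, where the peak covers the microRNA gene MIR3648-1, its fold was 4.06 in control cells, 7.63 under U2AF1 knockdown and 7.33 under DHX9 knockdown. In the RNA18SN4 copy it was 4.03, 7.49 and 6.76. In the RNA18SP4 copy the base lay in a wide peak with its summit at 1638, 1642 and 1665 of the unit, so its fold belongs to another place. The 300 bp windows around this site were identical in RNA18SN2 and RNA18SN4. They were also identical to each other in RNA18SN1, RNA18SN5 and RNA18SP3, and those 3 copies had no peak there in any list.

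The fragment at chr21:8986605-8988749 carries a further copy of that spacer, part of which is printed above, with the gene MIR3648-2 at chr21:8986999-8987178. Its peak had a fold of 5.56 and rank 504 in the control list. The fold was 16.2 and the rank 24 in the U2AF1 knockdown list, where it was the highest ribosomal DNA peak. In the DHX9 knockdown list the fold was 11.5 and the rank 140. The summits were at 8987399, 8987153 and 8987313, and the printed stretch holds the first of them. Both MIR3648 genes lay in a peak of every list.

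At the sites of the highest internal spacer peaks, only a few copies had a peak. Other summits of internal spacer 1 lay on further copies. At base 7763, in internal spacer 2, 2 of 8 copies had a peak in every list, both on chr22_KI270733v1_random. The RNA18SN4 copy had folds of 4.30, 7.29 and 7.17 and the RNA18SP4 copy 6.00, 10.1 and 10.3. In the 120 bp printed above, RNA18SN4 differs from RNA18SN3 by 1 substitution, 1 inserted and 1 missing base, and RNA18SN5, which had no peak, by 2 substitutions, 1 inserted and 1 missing base. The missing base is the last of the RNA18SN3 stretch, which the inserted base pushed beyond the end of the other stretches. At base 5845, in internal spacer 1, the RNA18SP4 copy had the highest folds, 5.27, 11.7 and 10.3. The base lay in a peak in 1, 3 and 3 of 8 copies, with the summit within 250 bp in 1, 2 and 3.

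Peaks lay at the 45S end in every complete copy of the knockdown lists. Within the first 500 bases after the end, 2 of 5 copies had a peak in the control list and 5 of 5 in each knockdown list. The single base 13366, the summit of the highest of these peaks in the DHX9 knockdown list, lay in a peak in 1 of 5 copies in the control list and in 4 of 5 in each knockdown list. The highest peak of every list there was on the RNA18SN4 copy, with folds of 4.22, 10.6 and 12.02 and summits at 13360, 13380 and 13366. In RNA18SN3 the summits were farther on, at 13693, 13695 and 13667, with folds of 1.71, 3.799 and 3.57. In RNA18SN2 they were at 13723 under U2AF1 knockdown (fold 4.87) and at 13704 under DHX9 knockdown (fold 4.51). The 300 bp window around base 13366 differed most in RNA18SN3, with 73 differences from the nearest copy. This count includes inserted and missing bases in windows of fixed length, so 1 gap can add many. Alignments of RNA18SN2 and RNA18SN1 to the unit broke off close to this base, at chr21:8219375 and chr21:8446645.

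Windows in a peak and windows in no peak were both close to another copy. Whether that nearest copy itself held a peak was not counted. Over 7 sites and 53 windows of 300 bp, the 30 windows in a peak of some list had a median of 0 differences from the nearest copy, with a maximum of 3. The 23 windows in no peak had a median of 0 as well, with a maximum of 73. This was a description of the reference only, and the copies in HEK293T cells were not analysed here.

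The Sal box core GGGTCGACC, searched on both strands, occurs 11 times in the reference unit, once at base 2914 in the 5′ external spacer and 10 times between bases 13336 and 15140. Of the bases from 2 kb before to 16 kb after the 45S start of the copies, 5.67% lay within 100 bp of a match. Of the summits in that range, 4 of 40 lay as close in control cells (10.0%), 10 of 78 under U2AF1 knockdown (12.8%) and 9 of 72 under DHX9 knockdown (12.5%). Among the 10 highest folds the numbers were 3, 4 and 3. The median fold of summits near a match was 4.04, 4.67 and 3.95, against 2.17, 3.39 and 3.79 farther away.

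In 300 bp windows around all summits, the core was found in 5 of 42, 10 of 85 and 10 of 85 ribosomal DNA peaks. In peaks outside these sequences it was found in 0.0378%, 0.0631% and 0.164%, and in 30 of 35116 RefSeq promoters of 300 bp (0.0854%, GRCh38.p14). The core is an element of the ribosomal DNA unit, so a higher share in ribosomal DNA windows follows from the sequence.

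The single highest peak of every list on these sequences lay at a U1 gene. The gene on chr1_KI270713v1_random is 100% identical to RNU1-1. Its peak had a fold of 16.6 in control cells (rank 43), 21.7 under U2AF1 knockdown (rank 11) and 39.6 under DHX9 knockdown (rank 12). The summits lay 236, 190 and 213 bp downstream of the gene's start, beyond its 3′ end. In both knockdown lists this was the highest peak of all sequences described here.

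The alternate sequence chr1_KI270765v1_alt carries 2 further U1 copies. The copy at 71963 to 72126, a match of RNVU1-28, is 99.4% identical to RNU1-1, with 1 substitution. Its folds were 20.6, 10.97 and 28.1, and in the control list it ranked first among these sequences. The copy at 63074 to 63238, a match of RNVU1-2A, is 92.1% identical, with 12 substitutions and 1 inserted base, and its folds were 12.2, 10.0 and 18.7. Another peak of that sequence, near the start of the gene ENSG00000290121, had folds of 10.4, 6.07 and 24.2. All 3 places had a peak in every list, and so did their copies on chromosome 1 in the same list. Copies of U2, U4, U5, U6, U11 or U12 with at least 90% identity were not found on these sequences, and the 1 match of 5S ribosomal RNA, on chr17_KI270857v1_alt, had no peak.

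Apart from ribosomal DNA, the reference sequence of the chromosome 21 short arm holds duplicates of genes from the long arm. GENCODE gives the type artifact to every such duplicate with a peak, and RefSeq lists the names used here as synonyms. These entries are therefore described as reference sequence, and whether the cells carry them was not tested. U2AF1L5 is the duplicate of U2AF1, the gene targeted in 1 of the knockdowns. Control and U2AF1 knockdown lists both had a peak over 2 of its exons, of 93 and 134 bp. The control peak, at 6486134 to 6486456, had a fold of 8.72 and rank 137. The U2AF1 knockdown peak, at 6486140 to 6486461, had a fold of 8.28 and rank 134. The DHX9 knockdown list had 0 peaks over these exons. Over the same exons of U2AF1 itself, at 43094477 to 43094787, the control fold was 6.79, and at 43094480 to 43094790 the U2AF1 knockdown fold was 5.81. These 134 bp exons are identical, so the origin of the reads is uncertain, and the peaks say nothing of how far U2AF1 was reduced.

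Other duplicates had peaks at their starts in 1 list. The DHX9 knockdown list had a peak at the start of U2AF1L5, which borders CRYAA2, a copy of the crystallin gene CRYAA, with a fold of 5.60. It also had peaks at GATD3B, with 7.097, and at SMIM11B, a copy of a small membrane protein gene, with 4.54. The control list had a peak at the start of SIK1B, a copy of the salt-inducible kinase gene SIK1, with a fold of 6.31. CBSL, KCNE1B and SMIM34B had 0 peaks in every list. Elsewhere on the short arm the control list had 7 peaks outside genes, of which the highest was at 10979054 to 10979325 with a fold of 5.51, and the U2AF1 knockdown list had 1, with 4.29. The DHX9 knockdown list had 1 at the mitochondrial pseudogene MTCO3P26, with 4.31.

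The peaks on alternate sequences had nearly all a second copy on a main chromosome. Such a copy, with at least 95% identity over at least 80% of the peak, was found for 32 of 34 such peaks in control cells, 11 of 13 under U2AF1 knockdown and 29 of 31 under DHX9 knockdown. The median identity was 100% in each list. Peaks on alternate sequences were placed by their best copy on a main chromosome. Start sites of protein-coding genes were the place of 17, 1 and 12 of them, or 50% (34.1 to 65.9), 7.69% (1.37 to 33.3) and 38.7% (23.7 to 56.2). Peaks without such a copy stayed in the totals and counted as not at a start. Of the peaks outside these sequences, placed by their own summit, 81.1%, 71.5% and 86.0% lay within 1000 bp of such a start. In each list the interval lay below this value. The main chromosome copy held a peak of the same list for 14, 5 and 14. Elsewhere the peak was present on the alternate sequence only.

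In the control list the protein-coding starts included HSPA1B, a heat shock protein of the HSP70 family, on 3 haplotypes of the major histocompatibility complex, with folds of 5.83, 5.18 and 5.02, and 0 peaks at the chromosome 6 copy. PAXBP1 had a fold of 9.39, the highest of these starts, in the control list alone. Control and DHX9 knockdown lists both had a peak at RRN3, an initiation factor of RNA polymerase I, with 4.06 and 6.72. The only protein-coding start of the U2AF1 knockdown list was VASN, with a fold of 5.24. DHX9 knockdown peaks without a match in another list lay at PDXDC1, with 5.89, and at TUBGCP5, a part of the gamma-tubulin complex, with 5.60.

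On the alternate sequence chr12_GL877875v1_alt the start of WASH8P, a pseudogene of the WASH family, had a peak in every list, with folds of 4.89, 7.39 and 10.4.

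Several peaks on unplaced contigs lay in repeats, of which the centromeric kind was also found on chromosome 21. The short contigs chrUn_KI270303v1, chrUn_KI270304v1 and chrUn_KI270310v1 each had 1 peak in every list, with folds from 1.73 to 2.36 in control cells, 1.59 to 2.79 under U2AF1 knockdown and 1.77 to 2.28 under DHX9 knockdown. All contain the CENP-B box, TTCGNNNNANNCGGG, searched on both strands. Searched over whole peaks, and outside ribosomal DNA, the box was found in 9 of 70 peaks on these sequences in control cells, 4 of 61 under U2AF1 knockdown and 3 of 88 under DHX9 knockdown. It was found in 4.99%, 2.46% and 0.375% of peaks elsewhere and in 24 of 35116 promoter windows of 300 bp (0.0683%).

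A second kind of repeat, AT-rich, was grouped from contigs with peaks in the control list alone. The AT-rich contigs chrUn_KI270333v1, chrUn_KI270336v1, chrUn_KI270337v1, chrUn_KI270466v1 and chrUn_KI270467v1 held 7 control peaks and 0 in both other lists. Their GC content was between 18.3% and 25.7%, and their folds were between 1.16 and 1.81, among the lowest of the list, although the −log10 q reached 123.8. These contigs were grouped after their values were seen, so the 0 in both other lists was part of the choice. Of all control peaks, 29.1% were overlapped by neither knockdown list. Outside these sequences, GC content went down to 20.7% in control peaks, 33.7% in U2AF1 knockdown peaks and 32.7% in DHX9 knockdown peaks.

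Another kind was seen in the knockdown lists. Contigs with many matches of GGAATG at their peaks, chrUn_KI270438v1 and chr17_KI270729v1_random, held 0 control peaks, 1 U2AF1 knockdown peak with a fold of 1.26, and 5 DHX9 knockdown peaks with folds from 1.18 to 1.80. The windows of 300 bp around these summits held between 10 and 32 matches, searched on both strands, and 14.0% of promoters held at least 1. Windows with at least 10 matches also occurred outside these sequences, at 4 of 2645 control peaks, 7 of 1584 U2AF1 knockdown peaks and 11 of 4270 in the DHX9 knockdown list. The contig chr14_GL000225v1_random held 5 control peaks with folds from 1.44 to 1.91, 15 U2AF1 knockdown peaks with 1.66 to 2.60 and 16 DHX9 knockdown peaks with 1.37 to 3.67. The contigs chrUn_KI270754v1, chrUn_KI270744v1 and chr1_KI270712v1_random had 0 control peaks, with 5, 2 and 3 U2AF1 knockdown peaks and 4, 5 and 3 DHX9 knockdown peaks.

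Several unlocalized and unplaced contigs had their highest peaks at low folds as well. In the U2AF1 knockdown list these were 4.23 on chrUn_KI270754v1, 3.49 on chrUn_GL000214v1 and 2.60 on chrUn_KI270744v1. In the DHX9 knockdown list they were 3.49 on chr1_KI270712v1_random and 3.10 on chr16_KI270728v1_random. Peaks that no other list overlapped were ranked within each list. Among the 5 highest per list, those on unlocalized or unplaced contigs were in the U2AF1 knockdown list. They had 5.24 on chrUn_KI270748v1, in a sequence with 268 copies, and 4.47 on chrUn_KI270442v1. A lower-ranked DHX9 knockdown peak, on chrUn_KI270519v1, had 5.08. On alternate sequences the highest such peaks, beyond those named, were 4.58 on chr19_GL383574v1_alt and 4.35 in a copy of the TTC34 gene in the U2AF1 knockdown list. In the DHX9 knockdown list they were 5.98 at PKD1P6, a pseudogene of PKD1, and 5.98 on chr6_GL000251v2_alt, in a sequence with 1342 copies.

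**Figure D4:**
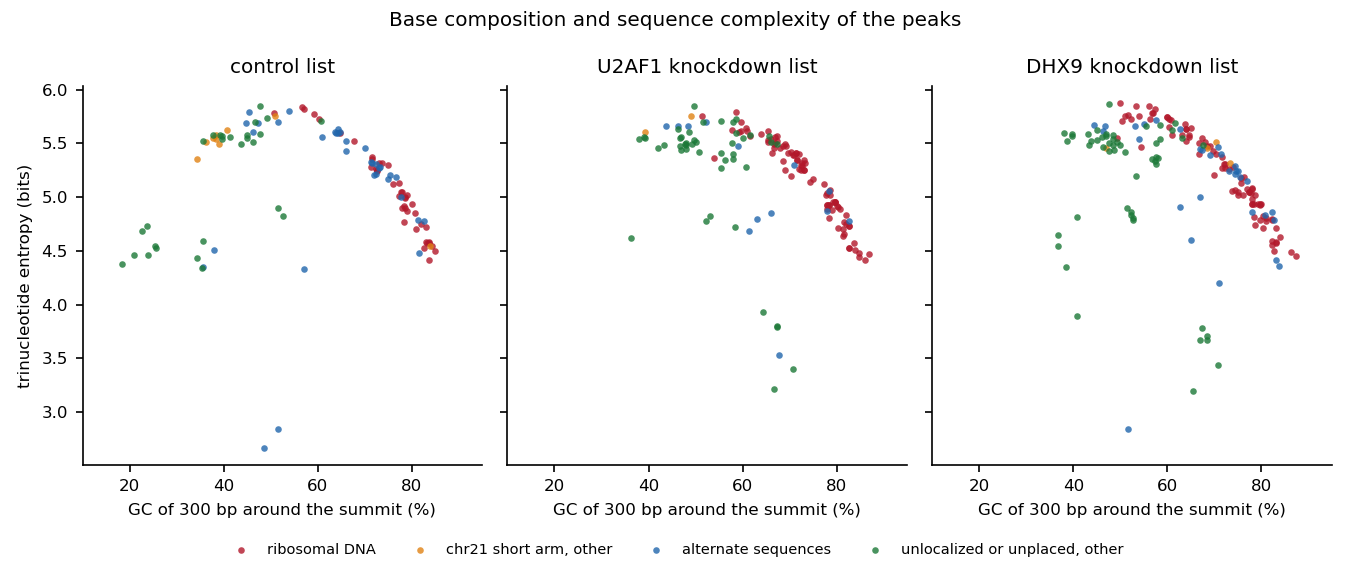
GC content of 300 bp around the summit (x axis, percent) and trinucleotide entropy (y axis, bits, lower for simpler sequence), with 1 panel per list and 1 point per peak. Ribosomal DNA forms an arc of high GC content, and the 7 AT-rich control peaks, between 18.3% and 25.7%, have no counterpart in the other panels.

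Median GC content differed between the groups in every list, while their ranges overlapped. Ribosomal DNA peaks had a median GC content of 78.0%, 72.7% and 73.0%, in the order control, U2AF1 knockdown, DHX9 knockdown, and alternate sequences 65.3%, 63.0% and 70.7%. Unlocalized and unplaced contigs had 39.7%, 52.7% and 50.0%. Peaks elsewhere had 70%, 71.7% and 71.7%. Low-complexity windows, with an entropy under 4 bits, numbered 2 of 112, 6 of 146 and 8 of 173 on these sequences, against 1.02%, 1.01% and 0.726% of peaks elsewhere.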

How the data were processed

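The deposited data were 3 peak lists in narrowPeak format, 1 per condition. The submitters' processing notes name Bowtie2 2.4.5, MACS2 2.2.7.1, deepTools 3.5.1 and hg38, without their roles. Read filters, the handling of multiple matches and of the input, and whether replicates were pooled are not given in the sources used here. Each deposited line holds a score, a fold enrichment (a ratio), −log10 of a p-value and of a q-value, and the offset of the summit, all as the authors made them. Depth is not given in the lists, so its effect on the number of weak peaks cannot be judged.

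Coordinates are in hg38, counting from 1, and all sequence names and ends of the peaks were found in that reference. Sequences were aligned with blastn 2.17.0. Ribosomal DNA copies were alignments of at least 500 bp and 90% identity to the unit, and a peak belonged to them with at least 80% of its length inside, or within 1000 bp of a 45S end. Second copies needed 95% identity over 80% of a peak. Genes came from GENCODE version 44 and RefSeq. Motifs and GC content were taken over 300 bp around summits, and the CENP-B box over whole peaks. Overlap and pileup scripts were tested on simulated data (Python 3.11.15, pandas 2.3.3).

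No test was run, because each condition has 1 list. Named peaks were the 5 highest by fold per list, the 5 highest per list without overlap, those at ribosomal RNA genes or chromosome 21 short arm duplicates, and the highest on each sequence with 5 or more peaks. GATD3B, the grouped repeat contigs and the genes at alternate sequences named beyond this rule were chosen after their values were seen. The peaks and lists were chosen with earlier results of these data known. Some peaks, among them ones that meet this rule, are not reported here.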

Additional observations from a re-analysis of the deposited data

How the results depend on the processing

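No paired analysis was possible because 1 deposited list without replicates stands for a condition, and for the same reason no replicate could be left out. Of 75 alternative values, 39 stayed within their interval or within 1.5 times the count and 36 moved. Changes of order between lists, which occurred as given above, were not counted here. The cause of the moves was not tested, except where a setting removes peaks by its construction.

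When peaks under a −log10 q of 5 were dropped, 11.05% of the U2AF1 knockdown list lay on these sequences. With the limit set in both lists, 68.1% of DHX9 knockdown peaks were overlapped by U2AF1 knockdown peaks, against 26.2% of the whole DHX9 knockdown list at that limit. With the limit in the first list alone this was 72.3%, the reverse was 80.7%, and 43.7% of DHX9 knockdown peaks were overlapped by control peaks, against 35.1%, 81.3% and 53.0% of all peaks. With peaks within 1000 bp merged, the U2AF1 knockdown list had 92 peaks and a share of 5.67%, and the DHX9 knockdown list a share of 2.74%. Without the chromosome 21 short arm the shares were 3.01%, 5.94% and 2.89% in the order control, U2AF1 knockdown, DHX9 knockdown.

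With lists cut to the length of the shortest, the share of the DHX9 knockdown list was 4.91%. Overlap was then 25.3% for U2AF1 knockdown peaks by the control list, 49.3% by the DHX9 knockdown list, and 80.0% for DHX9 knockdown peaks by the U2AF1 knockdown list, against 45.3%, 45.03% and 44.3% of all peaks in the lists so shortened. Requiring summits within 250 bp gave 39.3% and 48.2% for control peaks by the U2AF1 and DHX9 knockdown lists, 58.9% for U2AF1 knockdown peaks by the DHX9 knockdown list and 49.7% for the reverse, against 32.1%, 61.2%, 62.4% and 24.3% of all peaks. When a peak at a near-identical second copy also counted, the shares rose to 63.4% for control peaks by the U2AF1 knockdown list, 62.3% for the reverse, 80.8% for U2AF1 knockdown peaks by the DHX9 knockdown list, 72.8% for the reverse and 57.8% for DHX9 knockdown peaks by the control list. This last setting can only add matches, and its shares over all peaks were not computed.

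Leaving out ribosomal DNA, a setting chosen after seeing the data, left 70, 61 and 88 peaks in the same order of lists and shares of 2.58%, 3.71% and 2.02%. Overlap was then 21.4% and 35.7% for control peaks by the U2AF1 and DHX9 knockdown lists, 24.6% and 52.5% for U2AF1 knockdown peaks by the control and DHX9 knockdown lists, and 28.4% and 36.4% for DHX9 knockdown peaks by the control and U2AF1 knockdown lists. In the same order, the shares over all peaks, with ribosomal DNA kept, were 34.6% and 66.8%, 55.1% and 69.1%, and 41.3% and 26.8%.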
